A study of Mus musculus with 3 samples.

Results

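Integrins and laminins are the cell-surface receptors and the secreted ligands through which cells hold on to basement membrane, and their subunit genes were followed here in melan-a NRAS61K cells treated with doxycycline. The genes were taken by name from the platform annotation: every probe set with a single gene symbol beginning with Itga or Itgb and without the letters bp, or naming a laminin α, β or γ chain (Lama, Lamb or Lamc with 1 digit). This gave 77 of 45101 probe sets and 36 of 18194 genes, namely 16 integrin α genes, 8 integrin β genes, the 2 β-like genes Itgb2l and Itgbl1, and 10 laminin chain genes. The groups were cells after 6, 14 and 28 days with doxycycline at 1 µg/ml, and each time point had 1 Affymetrix array. All groups shared the same cells, immortalized mouse melanocytes that carry the NRAS61K oncogene, and the same medium with dialyzed serum. Out of 4 samples that the series text mentions, 3 are described here, none of them from untreated cells. The labels used here do not state which promoter drives the oncogene, nor if the line is 1 clone.

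An integrin is a pair of an α and a β subunit that spans the membrane, binds matrix outside and reaches the actin cytoskeleton through adaptors such as talin inside. The β1 chain pairs with many α chains, while αv takes several β chains, and the pair decides the ligand: collagen, laminin, or proteins with an arginine-glycine-aspartate (RGD) sequence such as fibronectin and vitronectin. A laminin is a cross-shaped trimer of 1 α, 1 β and 1 γ chain that forms the sheet of the basement membrane, on which epidermal melanocytes sit. In melanoma, the β3 subunit is known for its presence in invasive tumours.

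The deposited values were taken as log2 values. Quantile normalization by the authors had given all 3 arrays one and the same set of values, so each difference is relative to the other genes. The level of 1 probe set cannot be set against that of another, and the values below are compared only between arrays. The background, set per array at the 90th percentile of 62 genes (98 probe sets) taken as silent in pigment cells, was 22.72, 22.57 and 22.76 at days 6, 14 and 28. Of 14 melanocyte markers, 10, 11 and 10 lay above it in that order, among them Sox10, Mitf and Dct, while Tyr and Kit lay below it on every array. Since a time point had only 1 array, there is no spread between cultures and no test, so "higher" and "lower" describe these arrays. Below, the first step is day 14 against day 6, the second step day 28 against day 14, and the whole course day 28 against day 6. Probe sets of 1 gene served as the measure of error: the SD of their log2 differences over all genes was 0.30 in the first step, 0.24 in the second and 0.32 over the whole course. It covers differences between probe sets of a gene on the same arrays. Error that those probe sets share on an array, and the culture, are not in it. Where 1 of the arrays compared lay below the background, a difference is given as a bound, taken against the background itself, and the difference is at least that large. Counts, shares and medians instead use the deposited values, also where these lie below the background. The number of arrays limits the precision.

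Of the 36 genes, 22 lay above the background on all arrays and 2, Itgb7 and Lamc3, on 1 array. The other 12 were below it throughout. At least 2-fold higher at day 14 than at day 6 were 3 of 23 described genes (13.0%; Itgb3, Lama4 and Itgb8) and 0 were lower, where 5.46% of all 11860 described genes were higher and 3.9% lower. At day 28 against day 14, 0 of 23 were higher and 1 lower (4.35%; Itgb8), where 2.22% of all genes were higher and 1.45% lower. At day 28 against day 6, 3 of 24 were higher (12.5%; Itgb3, Itga8 and Lamb2) and 0 lower, where 6.58% of all genes were higher and 4.04% lower. At 1.5-fold the first step had 6 genes higher (26.1%) and 2 lower (8.70%), where 13.5% and 14.3% of all genes were. The second step had 3 higher (13.0%) and 1 lower (4.35%), where 7.61% and 4.39% of all genes were. The whole course had 8 higher (33.3%) and 0 lower, where 15.7% and 12.2% of all genes were. Among these, Itgb7 in the first step and Lamc3 in the second crossed the background, with bounds of 1.41-fold and 1.27-fold. With dim values raised to the background, the whole course kept 3 genes 2-fold higher and 0 lower. All genes then split into 649 higher and 407 lower, in place of 775 and 476. No test of these shares was made. The first step and the whole course use the same day 6 array, and its error enters each.

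The median log2 difference of the described genes was 0.24 for day 14 against day 6, beside -0.03 over all genes, and 16 of 23 (69.6%) were above 0, as were 47.3% of all genes. For day 28 against day 6 it was 0.29, beside 0.01 over all genes, with 17 of 24 (70.8%) above 0, as were 50.6% of all genes. For day 28 against day 14 it was -0.01, beside 0.03 over all genes, with 11 of 23 (47.8%) above 0, as were 54.6% of all genes. The hybridization controls gave means of 27.68, 27.76 and 27.80. With the arrays shifted to equal controls, which moved the median of all genes by -0.12 for day 28 against day 6, Itgb3 alone stayed 2-fold higher there, and all genes split into 632 higher and 645 lower in place of 775 and 476. For day 14 against day 6 the same 3 genes stayed 2-fold higher and 0 were lower, and all genes split into 560 and 622 in place of 647 and 463.

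**Figure D1:**
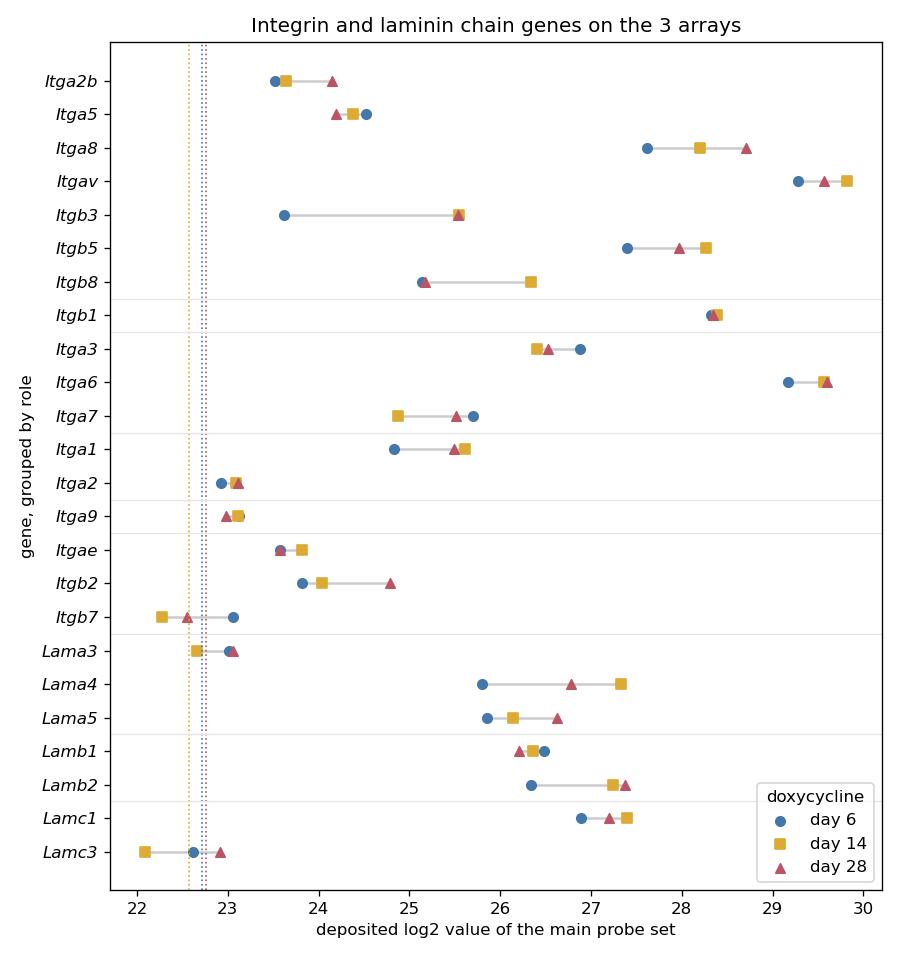
Deposited log2 value of the main probe set of each of the 24 genes that exceeded the background on 1 or more arrays, with 1 symbol per array and the background of each array as a dotted line in its colour. The day 6 value of Itgb3 stands far to the left of the other arrays and the day 14 value of Itgb8 far to the right. The values of Lama4 are spread, with day 6 lowest and day 14 highest, and those of Itgb1 almost coincide.

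Among subunits of RGD-binding integrins, Itgb3 differed most. It measured 23.62, 25.54 and 25.54 at days 6, 14 and 28. It encodes β3, which pairs with αv to bind vitronectin and, in platelets, with αIIb. The day 6 array was low and the 2 later arrays were alike. Itgb3 was 3.79-fold higher at day 14 and 3.77-fold higher at day 28 than at day 6, differences above those of 98.7% and 98.3% of the described genes. The day 6 value lay 0.90 above the background, and the fold rests on 1 of 2 probe sets, since the other was below the background on every array (20.76, 20.34 and 20.43).

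Itgb8 stood out at day 14 alone. It encodes β8, which with αv binds and activates latent TGF-β. Its values were 25.14, 26.34 and 25.17 in order of time. Day 14 was thus high and days 6 and 28 lay 0.03 apart. Itgb8 lay 2.29-fold higher at day 14 than at day 6 and 2.24-fold lower at day 28 than at day 14, where 0.95% of genes had a lower difference. It has a single probe set. An error of the day 14 array alone would give this shape, since that array enters the 2 steps with opposite sign.

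Itga8, the α8 subunit that pairs with β1 and binds nephronectin in the developing kidney, had values of 27.62, 28.20 and 28.70. It was higher at each later time, 2.12-fold at day 28 against day 6, with log2 differences of 0.58 for the first step and 0.50 for the second. The other probe set gave 0.30, 0.69 and, over the whole course, 0.99. Both probe sets put the arrays in the same order.

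Itgb5, another partner of αv and a receptor for vitronectin, measured 27.40, 28.26 and 27.97. All 4 of its probe sets were above the background and lay close together, at 0.85 to 0.88 in the first step, -0.29 to -0.20 in the second and 0.57 to 0.68 over the whole course. It stayed under 2-fold in each. The difference of Itgb3 exceeded that of Itgb5 by 1.06 on the log2 scale at day 14 and by 1.34 at day 28, both against day 6.

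For Itgav itself, the αv chain, the probe sets disagreed in direction. The main one had values of 29.28, 29.82 and 29.56, or 0.54 at day 14 and 0.28 at day 28 against day 6. A second had 25.51, 25.10 and 24.71, or -0.41 and -0.80. No direction is therefore given for Itgav against day 6. Both gave lower values at day 28 than at day 14 (-0.26 and -0.39).

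Itga2b, the αIIb chain of the platelet fibrinogen receptor, had values of 23.52, 23.64 and 24.14 and lay 1.54-fold higher at day 28 than at day 6. Itga5, the α5 chain of the fibronectin receptor, measured 24.52, 24.37 and 24.20. Its 3 probe sets above the background gave -0.33 to -0.07 for day 28 against day 6, all lower. In the second step the 2 that were above the background on both arrays gave -0.18 and 0.28, and the third, below it at day 14, gave a bound of 0.30. Itgb6, whose product binds the propeptide of TGF-β in epithelia, lay below the background on every array.

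**Figure D2:**
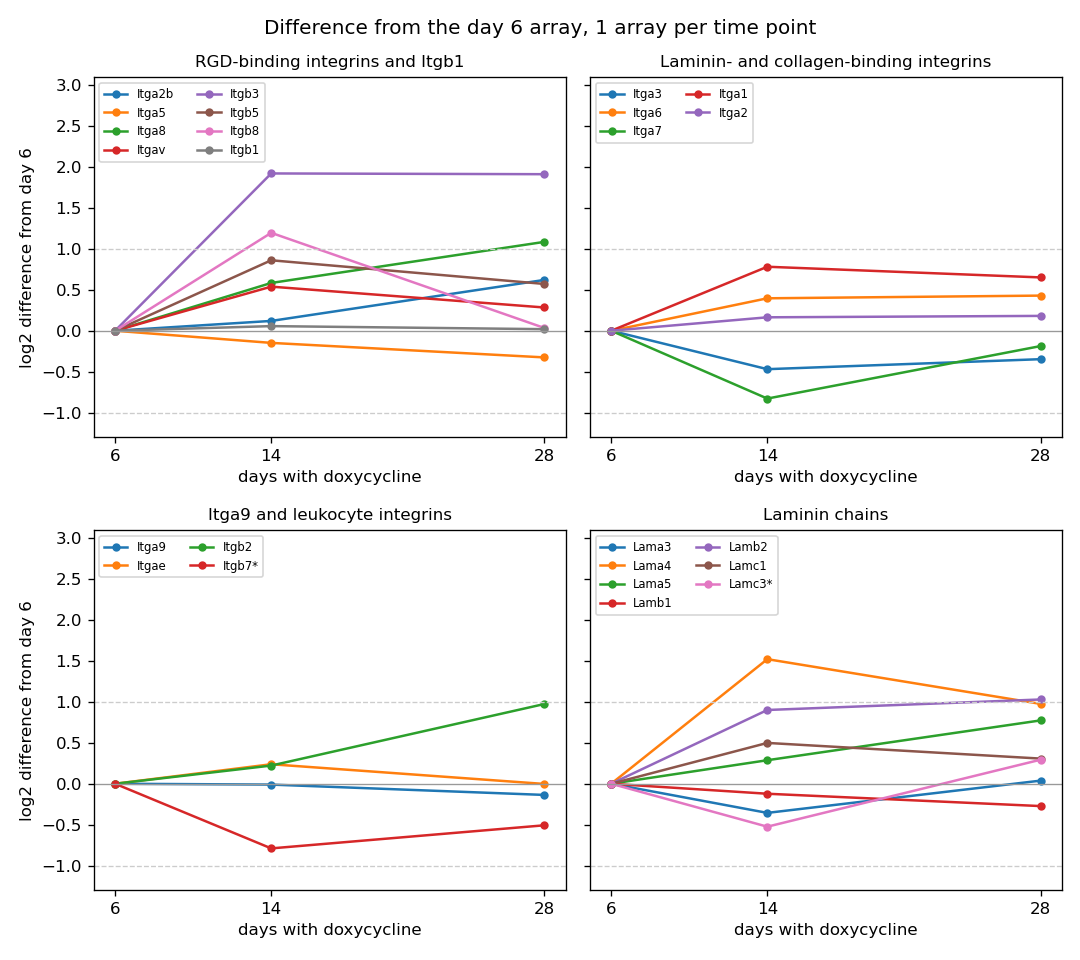
Log2 difference of the main probe set from the day 6 array (vertical axis) by days with doxycycline, in 4 panels by role, with dashed lines at a 2-fold difference; an asterisk marks genes above the background on 1 array only. Itgb3 reaches 1.92 and stays at 1.91, Itgb8 returns to 0.03, and Lama4 lies highest among the laminin chains at day 14.

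To show the DNA before the start of the genes that were 2-fold apart, the 250 bases upstream are printed for Itga8, Itgb8 and Lamb2 from RefSeq (GRCm38.p6). Of the 36 genes, 24 had an entry in that table, with 27 windows. Itgb3 and Lama4 had none. Capitals mark any match, on either strand, to 5 short motifs chosen with these sequences in view: CATGTG, bound by the pigment cell factor MITF, TGANTCA, bound by AP-1, the GC box GGGCGG, the CCAAT box, and GGAAGT, a core bound by ETS factors.
Itga8 chr2:12301945-12302194 (- strand): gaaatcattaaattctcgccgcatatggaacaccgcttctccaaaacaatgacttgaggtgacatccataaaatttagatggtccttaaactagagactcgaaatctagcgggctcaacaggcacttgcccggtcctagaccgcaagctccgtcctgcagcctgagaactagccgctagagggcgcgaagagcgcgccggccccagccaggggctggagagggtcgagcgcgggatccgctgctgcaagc
Itgb8 chr12:119238277-119238526 (- strand): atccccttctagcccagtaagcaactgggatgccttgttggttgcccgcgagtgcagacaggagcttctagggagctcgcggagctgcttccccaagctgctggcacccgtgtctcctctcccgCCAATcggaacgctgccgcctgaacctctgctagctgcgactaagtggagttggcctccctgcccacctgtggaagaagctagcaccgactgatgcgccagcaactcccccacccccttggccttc
Lamb2 chr9:108479612-108479861 (+ strand): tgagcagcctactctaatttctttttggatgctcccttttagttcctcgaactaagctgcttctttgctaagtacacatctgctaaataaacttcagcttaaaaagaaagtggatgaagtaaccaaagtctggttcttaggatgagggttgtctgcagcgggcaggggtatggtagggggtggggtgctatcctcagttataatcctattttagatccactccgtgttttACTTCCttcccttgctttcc
The Itgb8 window held 1 CCAAT and the Lamb2 window 1 GGAAGT on the opposite strand (ACTTCC). No other match was found in the 3 windows. Over all 32851 windows of the table, 12.3% held CATGTG, 6.75% TGANTCA, 32.7% GGGCGG, 33.8% CCAAT and 19.7% GGAAGT. Among the 27 windows of the family these numbered 5, 1, 10, 5 and 9. The G and C content was 56.4% for Itga8, 62.4% for Itgb8 and 43.6% for Lamb2, beside a median of 52.4% over all windows.

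Itgb1, the β chain that most laminin and collagen receptors share, was nearly level over time. Its main probe set had values of 28.33, 28.38 and 28.35. The 4 probe sets above the background differed by 0.06 to 0.14 in the first step, -0.15 to -0.04 in the second and -0.01 to 0.02 over the whole course. Itga8 and Itgb1, the genes of 1 receptor, thus differed unequally, by 1.07 on the log2 scale for day 28 against day 6.

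The α chains of laminin receptors went different ways. Itga6, the α6 chain of pairs with β1 or β4, measured 29.17, 29.57 and 29.60, and both of its probe sets were higher at day 14 (0.40 and 0.46) and at day 28 (0.43 and 0.40) than at day 6. Itga3, the α3 chain of an epithelial laminin receptor, measured 26.88, 26.41 and 26.53. Its 3 probe sets were lower than at day 6 at both later times, by -1.24 to -0.47 at day 14. At day 28 the main one and 1 other gave -0.35 and -0.48, and the dimmest had dropped below the background, a bound of -0.51. The differences of Itga6 and Itga3 lay 0.87 apart at day 14 and 0.78 at day 28, both against day 6.

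Itga7, the α7 chain best known as the laminin receptor of muscle, had values of 25.70, 24.87 and 25.51. It lay 1.78-fold lower at day 14 than at day 6, where 7.06% of genes had a lower difference, and day 28 lay 0.19 below day 6. Itgb4, the β4 chain of hemidesmosomes, stayed below the background, so no level is given for it.

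Collagen receptors were represented by Itga1 and Itga2, the α1 and α2 chains. Itga1 measured 24.83, 25.62 and 25.49, 1.72-fold higher at day 14 and 1.57-fold higher at day 28 than at day 6. Its other probe set lay below the background. Itga2 was near the background (22.93, 23.09 and 23.11) and its arrays differed by at most 0.18. Itga10 was below it on each.

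Of 6 integrin genes known mainly from leukocytes, Itgal, Itgam and Itgax were below the background on every array. Itgb2 encodes β2, the partner of those 3 chains. It was nonetheless measured at 23.81, 24.04 and 24.79, highest at day 28, where it was 1.97-fold above day 6 and just short of 2-fold. It has 1 probe set. Itgae, which encodes the E-cadherin receptor chain αE, measured 23.57, 23.81 and 23.57, with days 6 and 28 alike. Itgb7, the partner of αE, was above the background at day 6 alone (23.06, 22.27 and 22.55), at least 1.41-fold lower at day 14 and at least 1.23-fold lower at day 28, both against day 6.

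Of 11 leukocyte markers on the array, 5, 4 and 5 lay above the background in order of time, with mean log2 values of 22.64, 22.65 and 22.89, and Ptprc, the pan-leukocyte CD45 gene, was below it throughout. Lyz2 measured 24.57, 27.17 and 27.31 and Cd68 25.09, 23.98 and 25.99. Csf1r measured 24.36, 24.32 and 24.04, Adgre1 23.62, 23.35 and 23.49 and Laptm5 23.21, 22.56 and 22.96, each lower at day 28 than at day 6. The median difference of the 5 described leukocyte markers was -0.13 for day 28 against day 6. The part of these markers in the Itgb2 value was not tested.

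Of the remaining integrin genes, Itga9, the α9 chain that pairs with β1 and binds tenascin-C, measured 23.12, 23.11 and 22.98, within 0.54 of the background. Itga4, the α4 chain, was below the background on all of its 5 probe sets. Itgb2l and Itgbl1 were below it too.

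The laminin α chains give each trimer its receptor binding. Lama4, whose α4 chain belongs to laminins of vessels, nerve and mesenchyme, measured 25.80, 27.33 and 26.78. Day 14 was the highest and day 6 the lowest. Lama4 was 2.87-fold higher at day 14 and 1.97-fold higher at day 28 than at day 6, and lower by -0.55 on the log2 scale at day 28 than at day 14. A dimmer probe set, above the background at day 14 alone (22.05, 23.39 and 22.57), gave bounds of 0.67 for the first step and -0.63 for the second, of the same sign as the 1.52 and -0.55 of the main one.

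Lama5, the α5 chain of most adult basement membranes, took a different course, at 25.85, 26.14 and 26.63. It was higher at each later time, 1.71-fold at day 28 against day 6. A second probe set agreed closely, with 0.36, 0.46 and 0.82 beside 0.29, 0.49 and 0.77 for the first step, the second step and the whole course. The difference of Lama4 exceeded that of Lama5 by 1.24 in the first step and lay below it by -1.03 in the second.

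The other α chains were dim or silent. Lama3, the α3 chain of the laminin that anchors epidermis, lay at 23.02, 22.66 and 23.05, within 0.30 of the background. Lama1, found mainly in embryonic membranes, and Lama2, the muscle and nerve chain, were below it on every array.

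Of the β chains, Lamb2 and Lamb1 diverged. Lamb2, known from the neuromuscular synapse and the kidney filter, measured 26.34, 27.24 and 27.37, so both later arrays were high. It was 1.87-fold higher at day 14 and 2.04-fold higher at day 28, both against day 6. It has 1 probe set. Lamb1, the β1 chain of widespread laminins, measured 26.48, 26.36 and 26.21. Its 3 probe sets above the background were lower at both later times, by -0.31 to -0.12 at day 14. At day 28 the 2 brighter ones gave -0.41 and -0.27, and the dimmest had dropped below the background, a bound of -0.21. The difference of Lamb2 exceeded that of Lamb1 by 1.02 at day 14 and 1.30 at day 28, both against day 6. The SD of 0.30 and 0.32 between probe sets of 1 gene is that of a single difference and not of such a gap. Lamb3, a partner of the α3 chain in skin, was below the background.

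Lamc1, the γ1 chain of nearly all laminins outside the skin anchor, measured 26.89, 27.39 and 27.20, 1.41-fold higher at day 14 and 1.24-fold higher at day 28 than at day 6. Its second probe set was above the background at day 14 alone (22.60, 22.83 and 22.12). Lamc3, a γ chain known from nerve and brain surfaces, lay above the background at day 28 alone (22.62, 22.09 and 22.91), by 0.15. Of the 7 laminin chain genes described for day 28 against day 6, 6 were above 0, with a median of 0.31, and of the 17 integrin subunit genes described, 11 were above 0, with a median of 0.18. Over all genes 50.6% were above 0, with a median of 0.01.

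**Figure D3:**
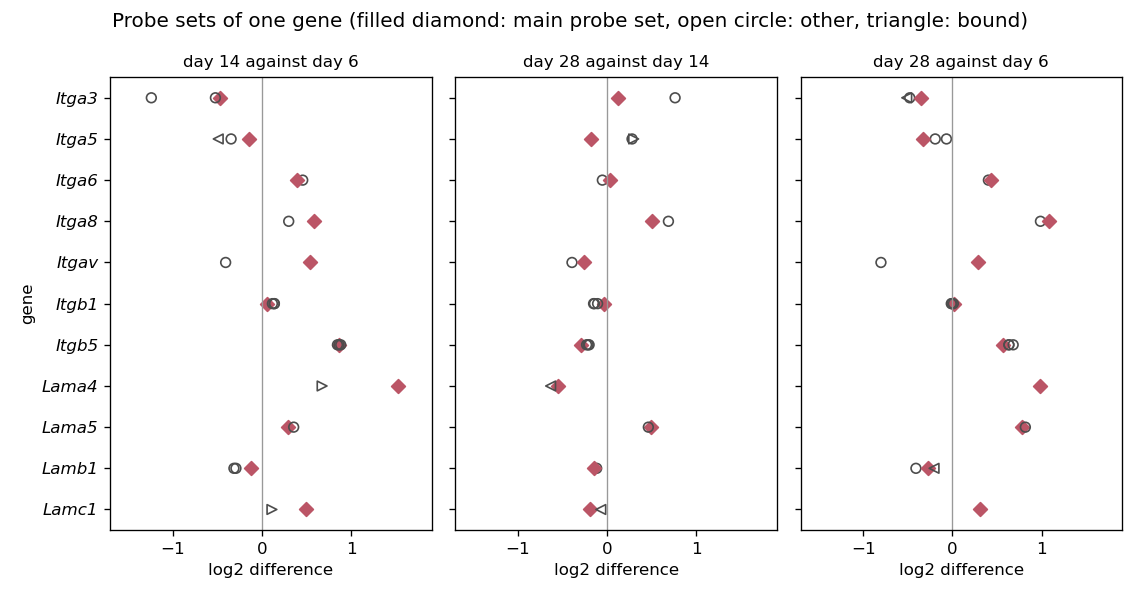
Log2 difference (horizontal axis) of each probe set that exceeded the background on either array compared, for genes with several such probe sets; filled diamonds are the main probe set, open circles the others and open triangles bounds, where 1 of the arrays lay below the background and the difference is at least that in the direction of the triangle. One whose bound had the opposite sign is not drawn. The 4 probe sets of Itgb5 and those of Itgb1 and Lama5 nearly coincide, while those of Itgav lie on both sides of 0 against day 6 and those of Itga3 spread from -1.24 to -0.47 at day 14.

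Agreement between probe sets could be read for 9 of the genes in each comparison. Their SD of log2 differences was 0.25 in the first step, 0.16 in the second and 0.22 over the whole course. Itgb3, Itgb8 and Lamb2, which gave 3 of the 5 genes 2-fold apart in any comparison, had only 1 usable probe set and no such check.

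**Figure D4:**
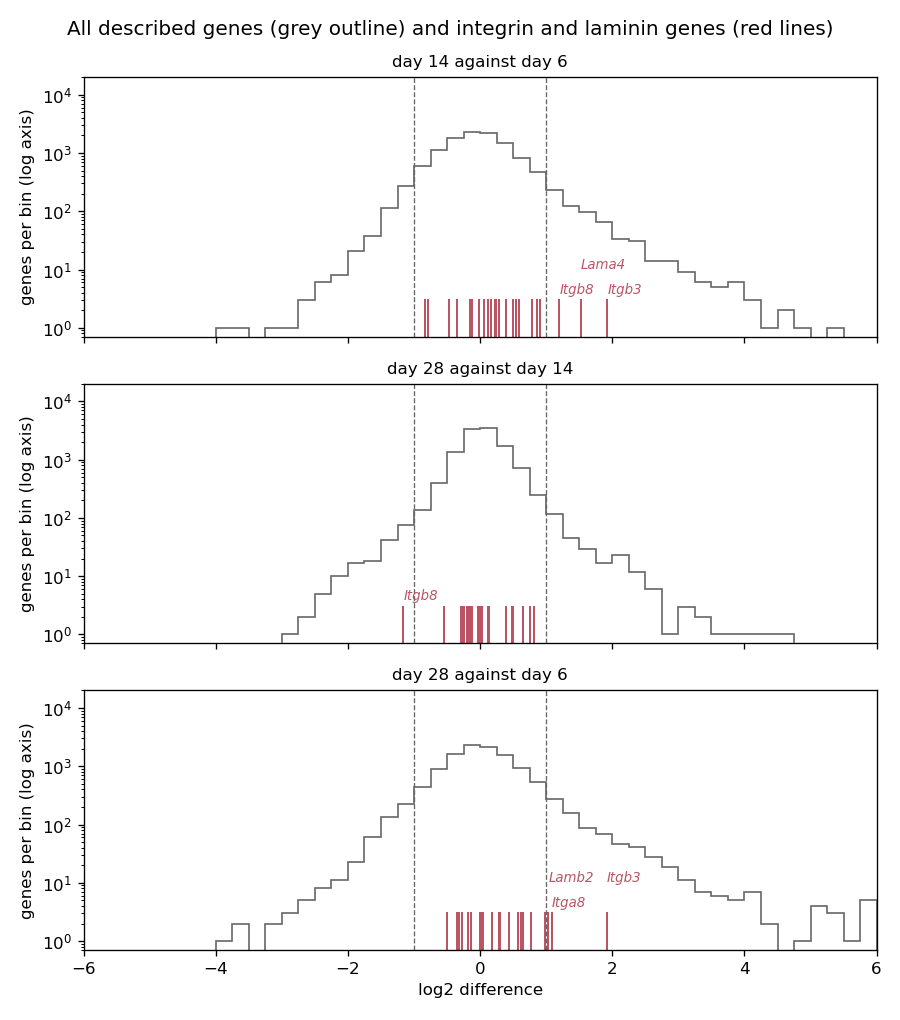
Number of genes (log axis) by log2 difference in bins of 0.25, with all described genes as the grey outline, integrin and laminin genes as red lines and a 2-fold difference as dashed lines; values beyond the axis are counted in the last bin. Most red lines lie within the bulk of all genes, and those named are 2-fold apart.

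Inside the cell, integrins act through adaptors. Of 36 adaptor genes on the array, 31 were described, and their medians lay near 0 (-0.02, -0.10 and -0.08 for the first step, the second step and the whole course). In the first step 2 were 2-fold higher and 1 lower, in the second 0 and 1, and over the whole course 2 and 1. The shares higher were 6.45%, 0% and 6.45%, beside 5.46%, 2.22% and 6.58% of all genes. Each share lower was 3.23%, beside 3.9%, 1.45% and 4.04% of all genes. Lims2, an adaptor that joins integrin-linked kinase, was 2.77-fold higher at day 14 and 2.32-fold higher at day 28 than at day 6, with day 6 near the background (22.86). Ptk2b, a kinase related to focal adhesion kinase, measured 24.16, 24.99 and 25.74, a log2 difference of 1.58 over the whole course. Tns2, a tensin, lay 2.11-fold higher at day 14 than at day 6. Tln2, a talin, measured 25.35, 25.16 and 23.68, 2.78-fold lower at day 28 than at day 14, with a second probe set at a bound of -1.51. Against day 6 it was 3.17-fold lower, while that second probe set, below the background at day 28, gave a bound of -0.31. In the first step the main one gave -0.19 and the second 1.19. Parvg dropped out of the measured range at day 14, which puts it at least 1.54-fold lower than at day 6.

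Of 16 genes of membrane partners of integrins on the array, 12 were described for day 14 against day 6. Of these 1 was higher and 1 lower (8.33% each, beside 5.46% and 3.9% of all genes). The 13 described for each comparison of day 28 had 2 higher (15.4%, beside 6.58% of all genes) and 0 lower (beside 4.04%) against day 6. Against day 14 they had 0 either way, where 2.22% of all genes were higher and 1.45% lower. The main probe set of Cd82, a tetraspanin, was 2.53-fold higher at day 14 and 2.14-fold higher at day 28, both against day 6. Its other probe set gave -0.30 and -0.35. Plaur, the urokinase receptor, lay 2.05-fold lower at day 14 than at day 6. Cd53, a leukocyte tetraspanin, was at least 1.21-fold higher at day 28 than at day 6. It counts as 2-fold higher on a day 6 value below the background.

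Other basement membrane genes and laminin receptors had medians of 0.53 in the first step, -0.20 in the second and 0.26 over the whole course, over 26, 26 and 23 of 34 genes. In these comparisons 3, 3 and 3 were 2-fold higher (11.5%, 11.5% and 13.0%) and 0, 2 and 0 lower (0%, 7.69% and 0%). Over all genes 5.46%, 2.22% and 6.58% were higher and 3.9%, 1.45% and 4.04% lower. Dag1, which encodes dystroglycan, a laminin receptor outside the integrin family, measured 28.42, 29.48 and 29.10 and lay 2.08-fold higher at day 14 than at day 6. Its 4 probe sets gave 1.06 to 1.44. Npnt, the gene of nephronectin, the ligand of α8β1, measured 22.78, 23.76 and 24.95, the same order in time as Itga8. It lay 4.50-fold higher at day 28 than at day 6, and a second probe set measured 22.50, 23.60 and 24.72. Day 6 lay near the background for the main one and below it for the second. Col4a5, a collagen chain of specialised membranes, was 7.05-fold higher and Ntn1, a guidance factor with laminin-like domains, 4.06-fold higher at day 28 than at day 6. Col4a4, Frem1 and Col15a1 were 2-fold apart on values that crossed the background, at least 2.24-fold and 1.61-fold higher at day 14 than at day 6 for the first pair and at least 1.01-fold lower at day 28 than at day 14 for Col15a1. The 2 other probe sets of Col4a4 gave 0.20 and a bound of 0.90 in that first step, so its size differed between them.

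Of 41 genes of integrin ligands other than laminins, 29, 28 and 28 were described in the same order. Fga, Fgb and Fgg, the fibrinogen genes, also served as silent genes. At day 14 against day 6, 8 were 2-fold higher (27.6%) and 0 lower, with a median of 0.25. At day 28 against day 14 these were 2 (7.14%) and 4 (14.3%), with a median of -0.04. At day 28 against day 6 they were 4 (14.3%) and 1 (3.57%), with a median of 0.21. Over all genes the shares higher and lower were 5.46% and 3.9%, 2.22% and 1.45%, and 6.58% and 4.04% in that order. Postn, whose product periostin binds αvβ3 and αvβ5, measured 24.32, 26.92 and 27.51 and was 6.04-fold higher at day 14 and 9.11-fold higher at day 28 than at day 6. Tgfbi and Edil3, also encoding ligands of αv integrins, lay below the background at day 6 and were at least 4.30-fold and 2.14-fold higher at day 14, and at least 4.59-fold and 2.52-fold higher at day 28. Col6a1, a collagen VI chain, was at least 8.51-fold higher at day 28 than at day 6 and 3.88-fold higher than at day 14. Cdh1, the E-cadherin that αE binds, was above the background at day 14 alone, at least 3.12-fold above day 6, and at day 28 at least 3.03-fold lower than at day 14. Ccn2 and Ccn1, matrix proteins that bind αv integrins, were 2.74-fold and 2.55-fold lower at day 28 than at day 14. Ccn2 measured 26.54, 28.32 and 26.87, so day 14 was high and day 28 lay 0.32 above day 6. Ccn1 measured 28.51, 28.48 and 27.13 on its main probe set, where day 28 alone was low. All of its other probe sets also had their lowest value at day 28. For day 14 against day 6 these gave 0.01, -0.65 and -0.72, beside -0.03 for the main one, so they differed on day 14.

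Markers of several cell types moved on the same arrays. The mean log2 value of the 14 melanocyte markers was 23.90, 25.68 and 24.98 in order of time, and Dct measured 23.83, 29.17 and 28.03. Tyrp1 measured 27.58, 29.67 and 27.47 and Pmel 23.07, 23.38 and 23.05, both slightly lower at day 28 than at day 6. The median difference of the 10 described melanocyte markers was 1.07 for day 28 against day 6. That of 8 smooth muscle markers was 24.60, 23.75 and 23.46, with Tagln at 28.68, 27.07 and 26.51. Of 11 keratinocyte markers 3, 3 and 2 were above the background, of 11 fibroblast markers 7, 6 and 7, and of 7 Schwann and glial markers 5, 5 and 4. The mean log2 value of the fibroblast markers was 22.86, 23.44 and 23.37, with Ogn at 24.29, 27.47 and 25.59 and Pdgfra at 23.88, 24.26 and 25.50. Col1a1 measured 23.97, 23.39 and 23.60 and Col1a2 22.99, 22.46 and 22.59, both lower at the later times than at day 6. The median difference of the 8 described fibroblast markers was 0.08 for day 28 against day 6. The mean log2 value of the Schwann and glial markers was 24.70, 25.46 and 25.14, with S100b at 24.70, 27.52 and 26.83 and Mbp at 23.93, 23.30 and 22.43. Of 11 endothelial markers 2 were above it on each array, Cdh5 and Egfl7, while Pecam1 and Kdr lay below it. Their mean was 21.74, 21.88 and 22.34. Cdh5 measured 23.70, 25.85 and 27.93, or 4.45-fold higher at day 14 and 18.7-fold at day 28 against day 6, and Egfl7 24.56, 24.65 and 25.59. The other probe sets of Egfl7 gave -0.11, 0.45 and 0.70 for day 28 against day 6, beside 1.03 for the main one. The 3' minus 5' log2 difference of Actb was 0.58, 0.76 and 0.75. The part of these markers and of RNA quality in the integrin and laminin values was not tested.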

How the data were processed

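Total RNA of the 3 cultures was labelled with biotin and hybridized to Affymetrix arrays, per the labels. The deposited table held 1 log2 value per probe set and array, quantile normalized by the authors before deposit, as the identical sorted columns show. The method of summarization and the log base are not given in the sources used here. Base 2 was inferred from hybridization controls, whose slopes were 0.79 to 0.80 per log2 unit of concentration. These slopes lie below 1 and do not settle the base, and every fold given here rests on base 2. Any constant added to the values cancels in differences. No unit other than these log2 values was used.

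Gene names came from the platform annotation, in which 34958 probe sets had 1 gene, 932 had several and 9211 were not listed. Symbols were updated by gene identifier through a RefSeq table of assembly GRCm38.p6. The main probe set of a gene was the one with the largest average across arrays. A gene was described when it exceeded the background on either array compared, and an array at or below the background gave a bound against it. Differences are later minus earlier time. Calls of 2-fold needed a log2 difference of at least 1 in size between the deposited values, also where 1 lay below the background. No test was run, since each time point had 1 array. All member genes above the background were named, and from each other list up to 4 genes per comparison with the largest differences among those 2-fold apart. The members and lists were chosen with earlier results of these data known. Alternatives covered the probe set, the background, dim values, the scaling, the filter and the size of difference. The steps were tested on simulated data. The planted differences there were larger than that of any member gene, and the noise was smaller than the SD between probe sets. That run checks the steps and not the calls near 2-fold. Python 3.11.15 was used with numpy 2.4.6, pandas 2.3.3 and matplotlib 3.10.9.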

Additional observations from a re-analysis of the deposited data

How the results depend on the processing

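Of 69 recomputed counts and medians, 64 stayed within 1.5 times the count, or within the SD between probe sets for a median, and 5 did not. With arrays shifted to equal hybridization controls, the whole course (day 28 against day 6) had 1 gene 2-fold higher in place of 3. At 1.5-fold in place of 2-fold, 8 were higher over the whole course, 6 higher and 2 lower in the first step (day 14 against day 6), and 3 higher in the second (day 28 against day 14). Medians ran from 0.17 to 0.30 over the whole course, 0.14 to 0.29 in the first step and -0.05 to 0.00 in the second. Of 256 recomputed differences of single genes, 239 moved by less than the SD between probe sets, 17 moved by more, and no 2-fold difference changed sign. The cause was not tested. No paired analysis was possible because each time point had 1 array. Values near the background, such as those of Itga2, Itga9, Lama3, Itgb7 and Lamc3, limit what can be read of these genes.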

Other observations

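Below the background, 2 probe sets of the family held values far from their other arrays. One of Itgb6 measured 19.82, 19.84 and 8.25 at days 6, 14 and 28, and one of Itga4 19.37, 18.26 and 7.55. The other probe sets of these genes did not share the drop at day 28: the second of Itgb6 measured 21.35, 21.32 and 21.12, and the 4 others of Itga4 differed by -0.14 to 3.93 between day 28 and day 6. Another Itga4 probe set ran the other way, at 15.79, 18.70 and 19.73. None of these entered a count of described genes, since all lay below the background. The main probe sets of Itgb6 and Itga4 entered only the counts and medians recomputed without a filter on dim genes.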
